A study of Mus musculus with 6 samples.

Results

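The immediate early genes FOS, FOSB, JUN, JUNB, JUND, EGR1, ATF3, IER2, KLF6 and ZFP36 were examined in bulk RNA-seq of mouse prostate lobes. They were chosen by symbol as genes that cells switch on within minutes of a stimulus, tissue dissociation among them, and make up 10 of the 24908 genes in the table, which writes mouse symbols in capitals. All 10 passed the filter on low values (a mean of at least 1 FPKM, a level per transcript length and per mapped reads of the library), together with 12361 genes in all, called the genes compared. Libraries came from 3 lobes of 2 male FVB mice aged 12 weeks: AP (anterior prostate), DLP (dorsolateral prostate) and VP (ventral prostate). The wild-type (WT) mouse was a littermate of the MYC mouse, a Hi-MYC heterozygote whose human c-MYC transgene is driven in prostate epithelium by the androgen-dependent ARR2/Pb promoter, and both were kept on a purified diet. Each lobe of each mouse gave 1 library, 6 in all, so genotype and mouse cannot be told apart. No test between libraries was run, since the lobes of a mouse are not replicates of its genotype, and errors below cover counting of reads only.

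Immediate early genes are transcribed without new protein synthesis, because the factors that switch them on (SRF with its ternary complex partners, and CREB) already sit at their promoters and are phosphorylated by MAP kinases. Their RNAs are short-lived, and many of the encoded proteins are transcription factors that pass the signal on. FOS and JUN proteins pair through leucine zippers to form AP-1, ATF3 belongs to the same zipper superfamily, EGR1 and KLF6 are zinc finger factors, IER2 is a nuclear protein of the early response, and ZFP36 (tristetraprolin) binds AU-rich elements in short-lived RNAs and hastens their decay. Enzymatic dissociation of solid tissue is a well known inducer of this program. Here every library was made from a cell suspension that had passed through a warmed collagenase and hyaluronidase digestion and then trypsin, dispase and DNase I. No undissociated library was analysed here, so the part of each level that stems from dissociation cannot be told apart from the level in the tissue.

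Signals reach immediate early genes through elements upstream of their transcription start. RefSeq promoter windows (GRCm38.p6) matched 8 of the 10 genes, all but EGR1 and IER2, and the 250 bases before each start were searched on both strands. The start used for FOSB lies within the annotated extent of that gene, so part of its window, with the motif match in it, is inside FOSB as annotated. The core of the cyclic AMP response element, TGACGT, was found in FOS and ATF3, and in 6.47% of all 32851 windows. The related element TGACNTCA, which JUN-ATF dimers bind, was found in JUN and KLF6, and in 7.49% of all windows. It contains TGACGT where its N is G, which was not so in these 4 genes. The CArG box, the binding element of SRF, was found in ZFP36 and in 1.47% of all windows. The AP-1 element TGANTCA was in none of the 8 windows and in 6.75% of all, GCGNGGGCG (an EGR1 element) was in FOSB and ZFP36 and in 4.7% of all, and TATAA was in FOS and in 22.8% of all. The last 150 bases before the start are shown for the 5 genes with a signal element, 5′ to 3′ on the gene's strand, with TGACGT, TGACNTCA or the CArG box (either orientation) in capitals. Such a match describes letters in a window and is not evidence of binding.
FOS, chr12:85473740-85473889, plus strand: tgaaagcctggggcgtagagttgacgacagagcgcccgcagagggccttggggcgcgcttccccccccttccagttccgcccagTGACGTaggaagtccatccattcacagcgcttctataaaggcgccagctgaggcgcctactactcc
ATF3, chr1:191183334-191183483, minus strand: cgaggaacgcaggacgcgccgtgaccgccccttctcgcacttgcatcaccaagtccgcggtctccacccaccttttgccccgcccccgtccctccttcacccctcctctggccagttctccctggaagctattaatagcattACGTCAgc
JUN, chr4:95052223-95052372, minus strand: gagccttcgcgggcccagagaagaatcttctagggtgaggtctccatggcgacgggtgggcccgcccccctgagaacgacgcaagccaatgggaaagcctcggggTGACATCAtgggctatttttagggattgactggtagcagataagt
KLF6, chr13:5861339-5861488, plus strand: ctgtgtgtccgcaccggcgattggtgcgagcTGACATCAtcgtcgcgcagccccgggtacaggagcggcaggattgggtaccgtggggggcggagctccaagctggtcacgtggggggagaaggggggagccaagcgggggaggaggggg
ZFP36, chr7:28379229-28379378, minus strand: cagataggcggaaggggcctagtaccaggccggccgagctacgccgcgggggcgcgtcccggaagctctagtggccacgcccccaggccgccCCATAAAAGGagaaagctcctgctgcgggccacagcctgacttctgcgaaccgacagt
The element lay 66 to 61 bases before the start in FOS, 8 to 3 in ATF3, 45 to 38 in JUN, 119 to 112 in KLF6 and 58 to 49 in ZFP36. The 8 windows had a median GC content of 64.8%, against 52.4% over all windows.

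The other end of these transcripts carries the elements that ZFP36 reads. In the longest annotated 3′ end of each gene (GENCODE M1), the pentamer ATTTA occurred in 9 of the 10 genes, IER2 being the exception, and in 68.4% of the 10686 genes compared with a 3′ untranslated sequence of at least 50 bases. The heptamer TATTTAT, the preferred element of ZFP36, occurred in 7 of the 10 and in 28.6% of the 10686. It was not found in JUNB, EGR1 and IER2. The first heptamer is shown in capitals with 10 bases on each side for 4 genes, among them ZFP36 itself, whose own RNA held 3 copies.
FOS: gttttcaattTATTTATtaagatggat
JUN: tgcttgtgcaTATTTATaatagcgttc
ATF3: aaatattactTATTTATcccagtattc
ZFP36: gtgggcccttTATTTATgacgacttta

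The depth of the libraries, estimated from the steps in the lowest FPKM values, was lowest in WT AP (25.5 M mapped reads) and highest in MYC AP (50.2 M). The 10 genes rested on an estimated 9760 to 272718 reads each per library. Luminal markers summed to 3748 to 6402 FPKM over 8 genes, mostly keratins, claudin and other general epithelial genes. The gene listed as MYC, whose mouse and human reads the table does not separate, had 226 FPKM in WT VP against 1696 in MYC VP and 201 in WT DLP against 586 in MYC DLP, but 230.0 in WT AP against 231 in MYC AP, so that it tells the genotypes apart in DLP and VP and not in AP. The MYC AP library stood apart in seminal vesicle secretion genes, with 524 FPKM summed over 8 genes against 0 to 11.3 in the other libraries.

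The immediate early genes were among the most abundant transcripts of every library. Each of the 10 ranked within the first 236 of the 24908 genes in all 6 libraries, and between 4 (MYC VP) and 7 (WT AP and WT VP) of them ranked within the first 100. Their median level was 840 and 1005 FPKM in the WT and the MYC library of AP, 757 and 907 in those of DLP, and 1093 and 685 in those of VP, whereas the median gene compared had 7.07 to 8.41 FPKM. Together they made up 2.55% and 2.76% of the FPKM sum in the WT and the MYC library of AP, 1.82% and 1.79% in those of DLP, and 2.58% and 1.63% in those of VP. The decay factor ZFP36 was the highest of the 10 in both AP and both DLP libraries, and ATF3 was the highest in both VP libraries. JUND was the lowest in every library but WT VP, where KLF6 was lower.

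**Figure D1:**
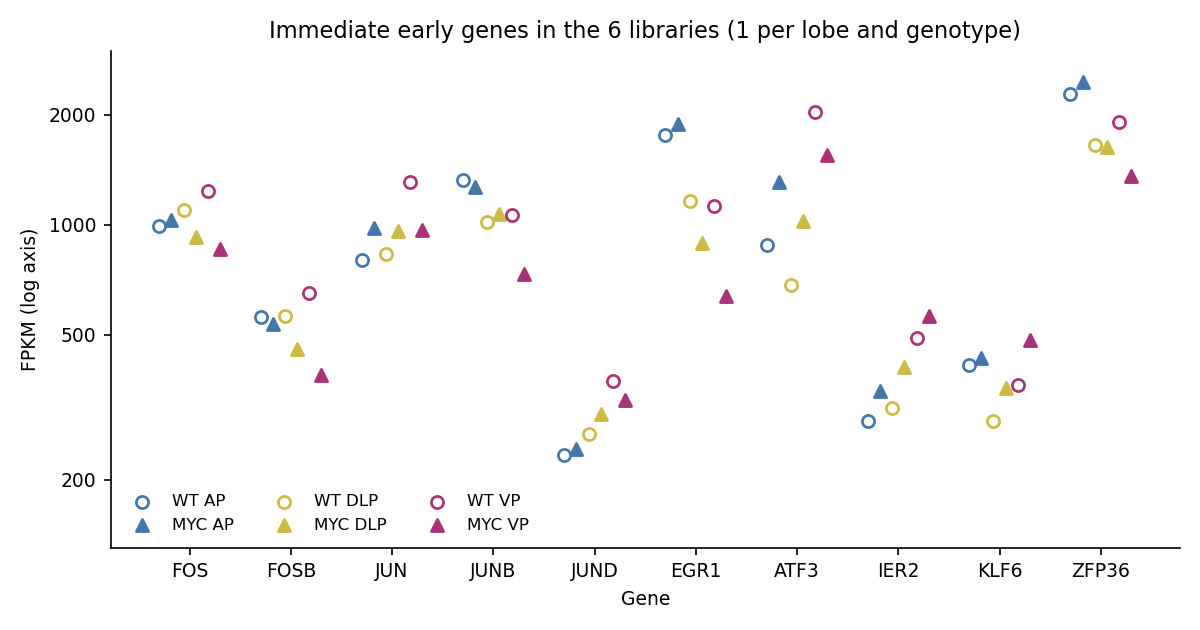
FPKM (log axis) of the 10 immediate early genes in each of the 6 libraries; each symbol is 1 library, open circles are WT, filled triangles are MYC, and colours mark the lobe. EGR1 spans 637 (MYC VP) to 1894 FPKM (MYC AP) and ATF3 spans 683 (WT DLP) to 2043 FPKM (WT VP), while FOS stays between 860.3 and 1240.4 FPKM.

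Levels across the libraries followed more than one order. On the log2 scale, the standard deviation over the 6 libraries was lowest for FOS (0.19) and highest for EGR1 (0.59) and ATF3 (0.57), with a median of 0.28 over the 10 genes, against 0.35 for the 12361 genes compared and 0.51 for the 543 genes whose mean reached 100 FPKM. EGR1, JUNB and ZFP36 had their 2 highest levels in the AP libraries and their lowest in MYC VP, and their log2 levels correlated pairwise with r between 0.92 and 0.97. JUN, JUND, ATF3 and IER2 were highest in a VP library and correlated pairwise with r between 0.70 and 0.89. FOS and FOSB correlated with r = 0.94 and shared their highest (WT VP) and lowest (MYC VP) library. KLF6 had no r above 0.53 with any other of the 10. These coefficients describe 6 libraries of 2 mice that share animals and handling, and no p-value applies to them.

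Within AP-1, FOS is the classic partner of the JUN proteins. FOS (chromosome 12, 85473890 to 85477274 in GRCm38.p6) had 994 and 1031 FPKM in the WT and the MYC library of AP, 1098 and 923 in those of DLP, and 1240.4 and 860.3 in those of VP. The highest and the lowest library were thus the 2 VP libraries, and the whole range was 1.44-fold. FOSB (chromosome 7, 19302696 to 19310118), a second FOS protein, had 558, 534, 562, 457, 649 and 386 FPKM in the same order of libraries. It ran at 0.449 (MYC VP) to 0.561 (WT AP) of the level of FOS.

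The 3 JUN genes did not keep to 1 pattern. JUN (chromosome 4, 95049036 to 95052222), the strongest activator of the family, had 803 and 979 FPKM in the WT and the MYC library of AP, 832 and 961 in those of DLP, and 1308 and 968 in those of VP. WT VP stood above the other 5 libraries, of which the 3 MYC libraries lay within 961 to 979. JUNB (chromosome 8, 84976909 to 84978748), a weaker activator that can counter JUN, had 1324, 1268, 1016, 1069, 1063 and 733 FPKM in the same order, so that the 2 AP libraries were highest and MYC VP lowest. JUND (chromosome 8, 70697739 to 70700616), which many resting cells express, had 234, 242, 267, 303, 373 and 332 FPKM, and both VP libraries lay above the other 4. As a share of the summed FPKM of the 3 genes, JUNB was 56.1% and 50.9% in the WT and the MYC library of AP, 48.0% and 45.8% in those of DLP, and 38.7% and 36.1% in those of VP. JUN was 47.7% in WT VP and 47.6% in MYC VP, against at most 41.2% elsewhere. In each lobe the MYC library had the lower JUNB share, and both VP libraries were below the other 4. These shares compare levels within a library, so the scaling of the libraries does not enter them.

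**Figure D2:**
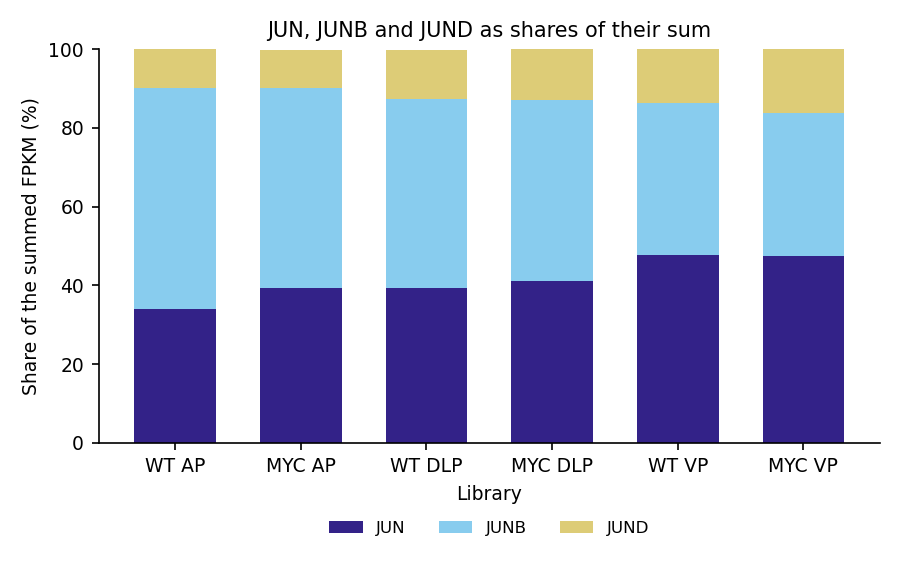
Shares of JUN, JUNB and JUND in their summed FPKM (%) in each of the 6 libraries, 1 stacked bar per library. JUNB makes up 56.1% in WT AP and 36.1% in MYC VP, and JUN exceeds JUNB in the 2 VP libraries alone.

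ATF3, a repressor of the ATF/CREB family that stress induces, had the widest range of the 10, 2.99-fold. ATF3 (chromosome 1, 191170296 to 191183333) had 878 and 1311 FPKM in the WT and the MYC library of AP, 683 and 1023 in those of DLP, and 2043 and 1554 in those of VP. Both VP libraries were above the other 4, and in AP and DLP the MYC library was above the WT library. The ratio of ATF3 to FOS was 0.883 and 1.27 in the WT and the MYC library of AP, 0.622 and 1.11 in those of DLP, and 1.65 and 1.81 in those of VP. The MYC library had the higher ratio in each of the 3 lobes.

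EGR1, which growth factors and stress induce through SRF, had a range of 2.97-fold, and was highest in AP rather than VP. EGR1 (chromosome 18, 34861207 to 34864956) had 1758 and 1894 FPKM in the WT and the MYC library of AP, 1161 and 890.5 in those of DLP, and 1124 and 637 in those of VP. The 2 AP libraries stood above all others, and the WT library was above the MYC library in DLP and VP but, as deposited, not in AP, where the ratio of 0.11 became -0.05 with scaling by medians of ratios. EGR1 exceeded ATF3 2.0-fold in WT AP, 1.44-fold in MYC AP and 1.7-fold in WT DLP, whereas its level was 0.871 of that of ATF3 in MYC DLP, 0.41 in MYC VP and 0.55 in WT VP. This ratio was lower in the MYC than in the WT library of every lobe.

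Of the remaining 3 genes, IER2 (chromosome 8, 84661331 to 84662852) had 289.7 and 349 FPKM in the WT and the MYC library of AP, 314 and 408 in those of DLP, and 489.9 and 560.4 in those of VP, and its MYC library was above its WT library in each lobe on the values as deposited. KLF6 (chromosome 13, 5861489 to 5870393), a factor with tumour suppressor activity in prostate, had 413, 429.9, 290.4, 356, 365 and 481 FPKM in the same order. It too was higher in MYC than in WT in each lobe on these values, although its ratio in AP, 0.06, became -0.09 with scaling by medians of ratios, with MYC VP the highest library of all. ZFP36 (chromosome 7, 28376784 to 28379228) had 2287, 2466, 1653, 1632, 1908 and 1363 FPKM. Its 2 AP libraries were highest and MYC VP lowest, as for EGR1 and JUNB.

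The comparison of MYC with WT within a lobe asks how the levels of the early genes differed between the MYC and the WT mouse. It was made as log2((MYC + 1) / (WT + 1)) on FPKM, with a difference of at least 2-fold counted. None of the 10 genes reached 2-fold in any lobe, either way. In AP, where 2.65% of the genes compared did so (2.05% higher and 0.599% lower), 8 of the 10 had a ratio above 0, with a median of 0.08 against 0.13 over all genes compared. The range ran from -0.06 (FOSB and JUNB) to 0.58 (ATF3, 1.49-fold), and 3 genes, not 8, were above 0 when libraries were scaled by medians of ratios. In DLP, where 9.85% of the genes compared reached 2-fold (6.46% higher and 3.39% lower), 6 of the 10 were above 0, with a median of 0.13 against 0.03 over all. ATF3 was again the highest, at 0.58 (1.5-fold), and EGR1 the lowest, at -0.38. The DLP median was -0.04, against -0.11 over all, when libraries were scaled to equal FPKM sums without the 20 highest genes.

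In VP, the lobe in which 12.8% of the genes compared differed at least 2-fold (6.88% higher and 5.95% lower), 8 of the 10 early genes were lower in MYC than in WT. The median log2 ratio of the 10 was -0.46, against 0.04 over all genes compared and 0.00 for the 533 other genes whose mean reached 100 FPKM, of which 50.3% were below 0. EGR1 was the lowest at -0.82 (1.76-fold lower, 95% counting interval -0.831 to -0.806), followed by FOSB at -0.75 (1.68-fold, -0.762 to -0.733). JUNB at -0.54, FOS at -0.53, ZFP36 at -0.48, JUN at -0.43, ATF3 at -0.39 and JUND at -0.17 were also below 0. The activating AP-1 subunits, their repressor-like partner ATF3 and the decay factor thus lay on the same side. KLF6 at 0.40 and IER2 at 0.19 were above 0, IER2 being the one of the 10 whose sign in VP turned with the scaling (-0.04 with equal sums of FPKM and -0.08 with equal sums without the 20 highest genes). Under those scalings EGR1 reached 2-fold (-1.05 and -1.09), and FOSB did so under the second (-1.02). Expressed as a percentile among the 12361 ratios of this lobe, EGR1 was at 8.87, FOSB at 10.4 and JUNB at 16.5.

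**Figure D3:**
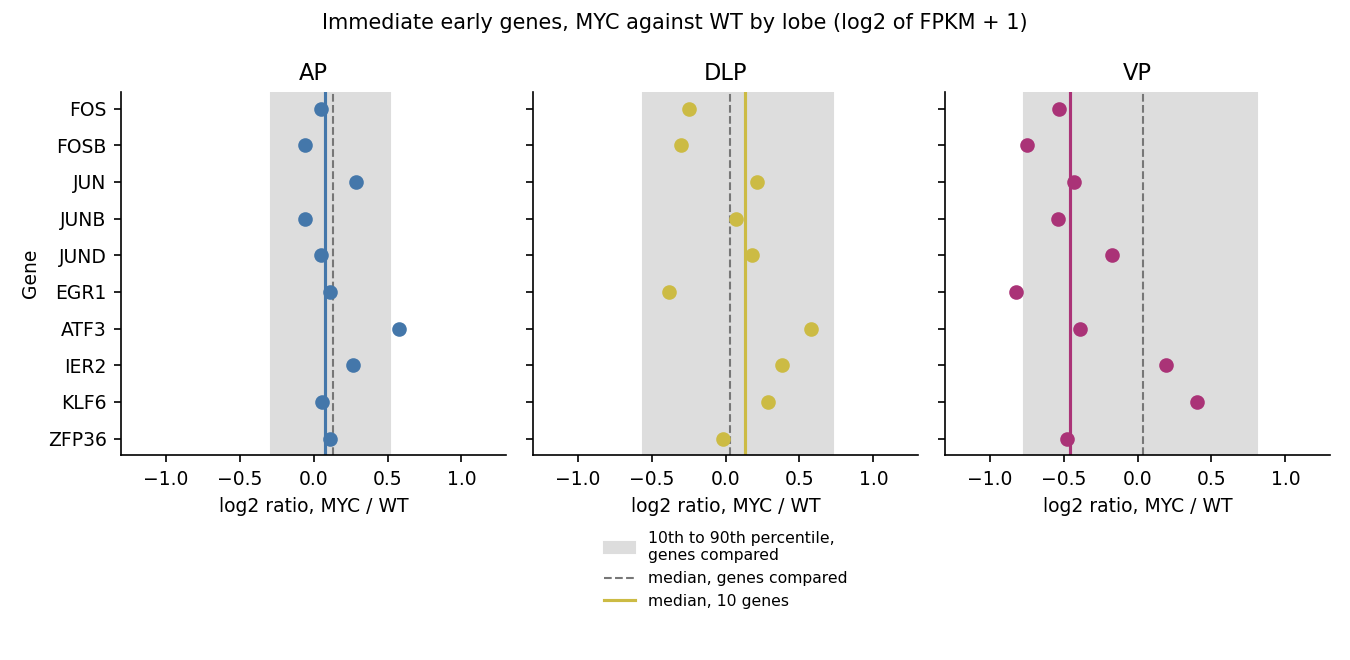
log2 ratio of MYC to WT of the 10 immediate early genes in AP, DLP and VP; each point is 1 gene from 1 library per genotype, grey bands span the 10th to 90th percentile of the 12361 genes compared, dashed lines are their median and coloured lines are the median of the 10 genes. The coloured line is at 0.08 in AP, 0.13 in DLP and -0.46 in VP, and EGR1 in VP (-0.82) and ATF3 in AP (0.58) are outside the band.

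The genotype ratio was lower in VP than in AP for 9 of the 10 genes, KLF6 being the exception, while 54.0% of the genes compared were lower in VP than in AP. ATF3 had the largest gap, from 0.58 in AP to -0.39 in VP, and EGR1 the next, from 0.11 to -0.82. For 6 of the 10 (FOS, JUN, JUND, EGR1, ATF3 and ZFP36) the ratio was above 0 in AP and below 0 in VP, against 28.2% of the genes compared. Scaling by medians of ratios left 2 of these 6, JUN and ATF3, with that change of sign, and 9 of the 10 genes still had the lower ratio in VP. IER2 had nearly the same ratio in AP (0.27), DLP (0.38) and VP (0.19). With 1 library per lobe and genotype the difference between lobes was not tested.

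Markers of other cell types differed between the same VP libraries. Fibroblast and matrix markers summed to 697 FPKM in WT VP against 210.4 in MYC VP, with 5 of 9 at least 2-fold lower, and smooth muscle markers to 375 and 228, with 2 of 8 lower. Hematopoietic markers summed to 50.6 FPKM in WT VP against 271 in MYC VP, with 10 of the 12 compared at least 2-fold higher. Basal markers went from 771 to 514 FPKM (1 of 8 lower), luminal markers from 6402 to 5579 (1 of 8 lower), and endothelial markers were 37.0 and 38.5 FPKM. In DLP the hematopoietic sum went from 106 to 459 FPKM (12 of 12 compared higher) and the fibroblast sum from 1403 to 760.3. Most of that fibroblast sum was DCN (1155 and 454 FPKM), and the list split, with 3 of 9 lower and 2 higher (COL1A1 and COL3A1). Smooth muscle markers there went from 437 to 256 FPKM (3 of 8 lower) and basal markers from 1634 to 2171 (2 of 8 higher). In AP the hematopoietic sums were 222 and 219 FPKM, while basal markers went from 2414 to 1313 (2 of 8 lower and 1 higher), smooth muscle markers from 247 to 392 (none at 2-fold) and fibroblast markers from 1304 to 1495 (3 of 9 higher). None of these markers was listed at 0 in any library. Their part in the ratios of the early genes was not tested, and in bulk RNA fewer cells of a type and less RNA per cell cannot be told apart.

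Between VP and AP, JUND and IER2 had ratios above 0 and JUNB, EGR1 and ZFP36 below 0 in both mice under each scaling. ATF3 was above 0 in both as deposited, but at -0.10 in the MYC mouse with equal sums of FPKM. FOS, FOSB, JUN and KLF6 had opposite signs in the 2 mice as deposited. In the WT mouse, 18.2% of the genes compared differed at least 2-fold between VP and AP, 8.92% between VP and DLP, and 5.16% between DLP and AP. One of the 10 genes did so between VP and AP, ATF3, which was 2.32-fold higher in VP (log2 ratio 1.22, counting interval 1.198 to 1.239). IER2 (0.76), JUN (0.70) and JUND (0.67) came next, and EGR1 was the lowest, at -0.64. Between VP and DLP of the WT mouse, ATF3 was again the one gene past 2-fold, at 1.58 (2.99-fold), and 9 of the 10 genes were higher in VP, with a median of 0.27 against -0.13 over all genes compared. Between DLP and AP none reached 2-fold. There the median was -0.18 against 0.10 over all, with EGR1 (-0.60), KLF6 (-0.51) and ZFP36 (-0.47) lowest, and 5 genes lay on each side of 0, whereas all 10 lay below 0 with equal sums of FPKM. Markers of cell types differed between the WT lobes as well. Between VP and AP, 2 of 8 luminal markers were at least 2-fold higher in VP. Lower in VP were 10 of 12 hematopoietic, 5 of 9 fibroblast, 7 of 8 basal and 10 of 10 endothelial markers. Their part in the ratios of ATF3 was not tested.

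In the MYC mouse, 25.1% of the genes compared differed at least 2-fold between VP and AP, 17.6% between VP and DLP, and 8.03% between DLP and AP. EGR1 was the one gene of the 10 past 2-fold, 2.97-fold lower in VP than in AP (log2 ratio -1.57, counting interval -1.583 to -1.56) and 2.13-fold lower in DLP than in AP (-1.09). ZFP36 (-0.85) and JUNB (-0.79) followed between VP and AP, and both passed 2-fold with equal sums of FPKM (-1.20 and -1.13). IER2 (0.68) and JUND (0.45) were higher in VP, as they were in the WT mouse. JUN, which in the WT mouse had a ratio of 0.70 between VP and AP, had -0.02 in the MYC mouse. Between VP and DLP none of the 10 reached 2-fold, with ATF3 highest (0.60) and JUNB lowest (-0.54). The MYC AP library takes part in the first and the last of these comparisons, and its seminal vesicle genes (524 FPKM against 0 in MYC VP and 11.3 in MYC DLP) moved with them. Whether they bear on EGR1 was not tested; in the WT mouse, where those genes summed to at most 0.186 FPKM in any lobe, the ratio of EGR1 was -0.64 between VP and AP and -0.60 between DLP and AP. Other markers differed between these lobes in both mice, with endothelial markers at 37.0 and 38.5 FPKM in VP against 164 to 241 FPKM in the other 4 libraries, and basal markers at 514 and 771 FPKM in VP against 1313 to 2414 FPKM. In the MYC mouse, fibroblast markers went from 1495 FPKM in AP to 760.3 in DLP (4 of 9 lower) and 210.4 in VP (9 of 9 lower), smooth muscle markers from 392 in AP to 228 in VP (4 of 8 lower), and hematopoietic markers from 219 in AP to 459 in DLP (9 of 12 compared higher). Their part in the ratios of EGR1 was not tested.

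**Figure D4:**
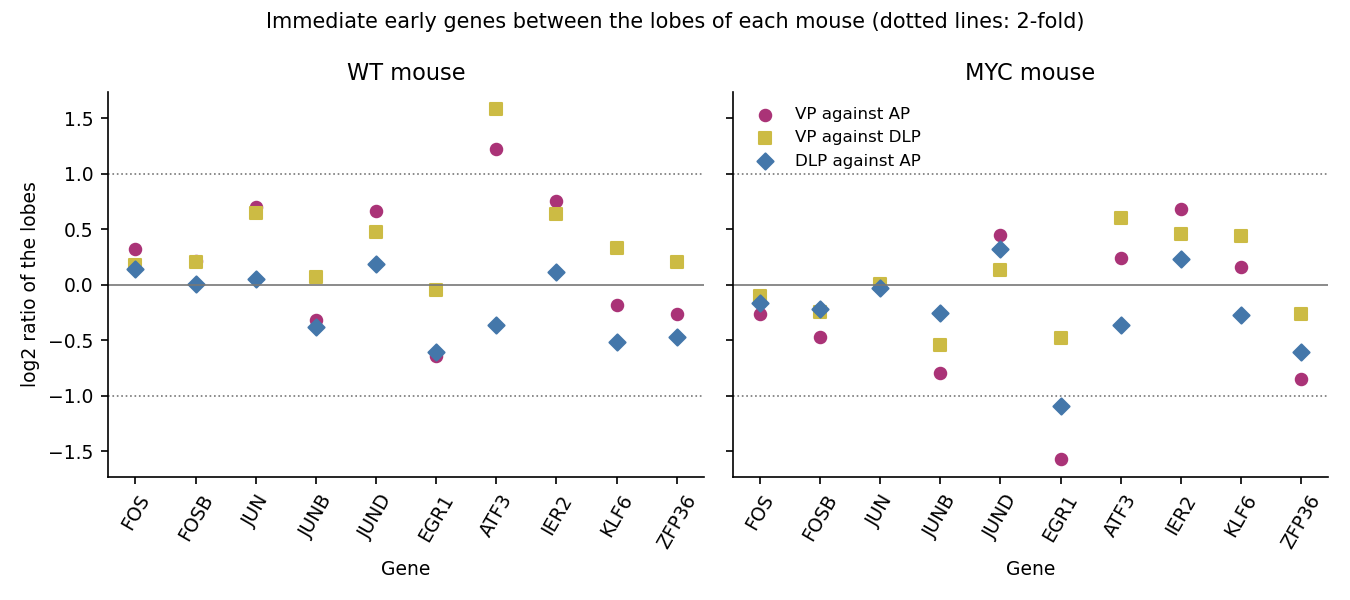
log2 ratios between lobes of the 10 immediate early genes, within the WT mouse (left) and the MYC mouse (right); each symbol is 1 gene in 1 pair of libraries, and dotted lines mark 2-fold. ATF3 passes 2-fold in the WT mouse (1.22 and 1.58) and EGR1 in the MYC mouse (-1.57 and -1.09).

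Other immediate early transcription factors were also mostly lower in the MYC library of VP, 16 of 18 having a ratio below 0. Of the 18, 8 were at least 2-fold lower in MYC VP than in WT VP and none was higher, with a median log2 ratio of -0.89, where 5.95% of all genes compared were lower and 6.88% higher. In AP, 1 was lower and none higher (median -0.21), against 0.599% and 2.05% of all genes, and in DLP 1 was lower and 1 higher (median 0.19), against 3.39% and 6.46%, which is near the share of all genes. FOSL1, another FOS protein, had 435 and 178 FPKM in the WT and the MYC library of AP, 242 and 189 in those of DLP, and 153 and 64.5 in those of VP, with ratios of -1.28, -0.35 and -1.23 in AP, DLP and VP. CEBPD, a factor of the acute phase response, had 223, 134, 164, 58.7, 62.4 and 20.4 FPKM in the same order, with ratios of -0.73, -1.47 and -1.57. Both were lower in MYC in all 3 lobes. The list also differed between lobes, with 11 of 18 at least 2-fold lower in VP than in AP of the MYC mouse (median -1.15), where 16.1% of all genes compared were, and 6 of 18 in the WT mouse (median -0.81), where 10.3% were.

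Early genes of other roles (growth arrest, matrix signals, apoptosis and RNA decay) had 3 of 21 at least 2-fold lower and none higher in MYC VP (5.95% and 6.88% of all genes compared), with a median of -0.18, and 1 lower and 1 higher in DLP, with a median of 0.34, near the 3.39% and 6.46% of all genes. In AP none reached 2-fold, where 2.65% of all genes compared did. GADD45G, a growth arrest gene, had 581 and 437 FPKM in the WT and the MYC library of AP, 544 and 257 in those of DLP, and 414 and 129 in those of VP. It was lower in MYC in all 3 lobes, with ratios of -0.41, -1.08 and -1.67.

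Feedback inhibitors are induced by the same signals and then shut off MAP kinase and cytokine pathways. Of 16, 5 were at least 2-fold lower and 3 higher in MYC VP (5.95% and 6.88% of all genes compared), with a median of -0.61. In DLP 2 were at least 2-fold higher (6.46% of all), and in AP none reached 2-fold (2.65% of all). Under each of the 3 other scalings, DUSP2 alone was at least 2-fold higher in MYC VP, and 6 or 7 of the 16 were lower, since DUSP10 and TNFAIP3 lay at the threshold. The 2 that were higher in both DLP and VP as deposited were phosphatases of MAP kinases. DUSP10, which acts on JNK and p38, had 17.7 and 22.7 FPKM in the WT and the MYC library of AP, 15.9 and 49.2 in those of DLP, and 43.9 and 89.0 in those of VP. DUSP2, an ERK phosphatase of immune cells, had 2.80, 6.18, 4.68, 12.5, 1.31 and 5.43 FPKM. DUSP2 thus differed in the same direction as the hematopoietic sums in DLP and VP, and the part of immune cells in it was not tested.

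Of 16 AP-1 partners (the ATF, MAF, BATF and CREB genes, JDP2 and DDIT3), 2 were at least 2-fold lower in MYC VP, ATF5 and DDIT3 (-1.28), where 5.95% of all genes compared were. In DLP 1 was lower and 1 higher, near the 3.39% and 6.46% of all genes, and in AP none reached 2-fold (2.65% of all). Ratios were below 0 for 15 in VP (median -0.30), 11 in DLP (-0.21) and 13 in AP (-0.14). The medians over all genes compared were 0.04, 0.03 and 0.13. ATF5, a factor of the stress response, had 56.9 and 35.96 FPKM in the WT and the MYC library of AP, 32.6 and 15.5 in those of DLP, and 24.3 and 8.81 in those of VP. It was lower in MYC in every lobe. Of 19 upstream factors and kinases, which count CREB1 again, none reached 2-fold between the genotypes in any lobe. Of all genes compared, 2.65% did so in AP, 9.85% in DLP and 12.8% in VP. The list medians were -0.03, -0.11 and 0.00 in AP, DLP and VP, against 0.13, 0.03 and 0.04 over all. SRF, the factor that binds the CArG box, had 156, 122, 103, 95.6, 165 and 134 FPKM in the same order of libraries, and MAPK3 (ERK1) had 75.2, 75.2, 85.3, 88.6, 59.4 and 104 FPKM.

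Inflammatory transcripts with AU-rich elements, the best known targets of ZFP36, had 2 of 12 at least 2-fold lower in MYC VP (median -0.20, with 5.95% of all genes compared lower), 3 higher and 1 lower in DLP (median 0.08, with 6.46% and 3.39% of all), and 1 lower in AP (median -0.41, with 0.599% of all). CCL3, a chemokine of macrophages, had 96.3 and 46.8 FPKM in the WT and the MYC library of AP, 179 and 98.1 in those of DLP, and 87.6 and 31.9 in those of VP, and was lower in MYC in each lobe. Hematopoietic markers were higher in the MYC libraries of DLP and VP. The rest of the list did not keep to the direction of CCL3. In DLP, IL1B (1.44), IL1A (1.20) and VEGFA (1.04) were the 3 higher and TNF (-1.15) the 1 lower, and in VP 6 of 12 were above 0 and 6 below. The part of immune cells in these ratios was not tested. Heat shock genes, which the warming step of a dissociation can also induce, were higher in MYC than in WT in AP for 11 of 12. Their median there was 0.44, against 0.13 over all, with none at 2-fold (2.65% of all). Medians were 0.03 in DLP and 0.27 in VP, where 1, HSPD1 (1.04), was at least 2-fold higher, near the 6.88% of all genes. In VP 8 were above 0 and 4 below, among the latter HSPA1A (-0.77), HSPA1B (-0.75) and BAG3 (-0.94). HSPA1B, the inducible HSP70 whose reads a near-identical copy can share, had 2142 and 2916 FPKM in the WT and the MYC library of AP, 1667 and 1664 in those of DLP, and 1199 and 711 in those of VP. HSPB1 had 1550.0, 2088, 1633, 1941, 1331 and 1598 FPKM. HSPA1B, like EGR1, was highest in the 2 AP libraries and lowest in MYC VP, whereas HSPB1 was lowest in WT VP.

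**Figure D5:**
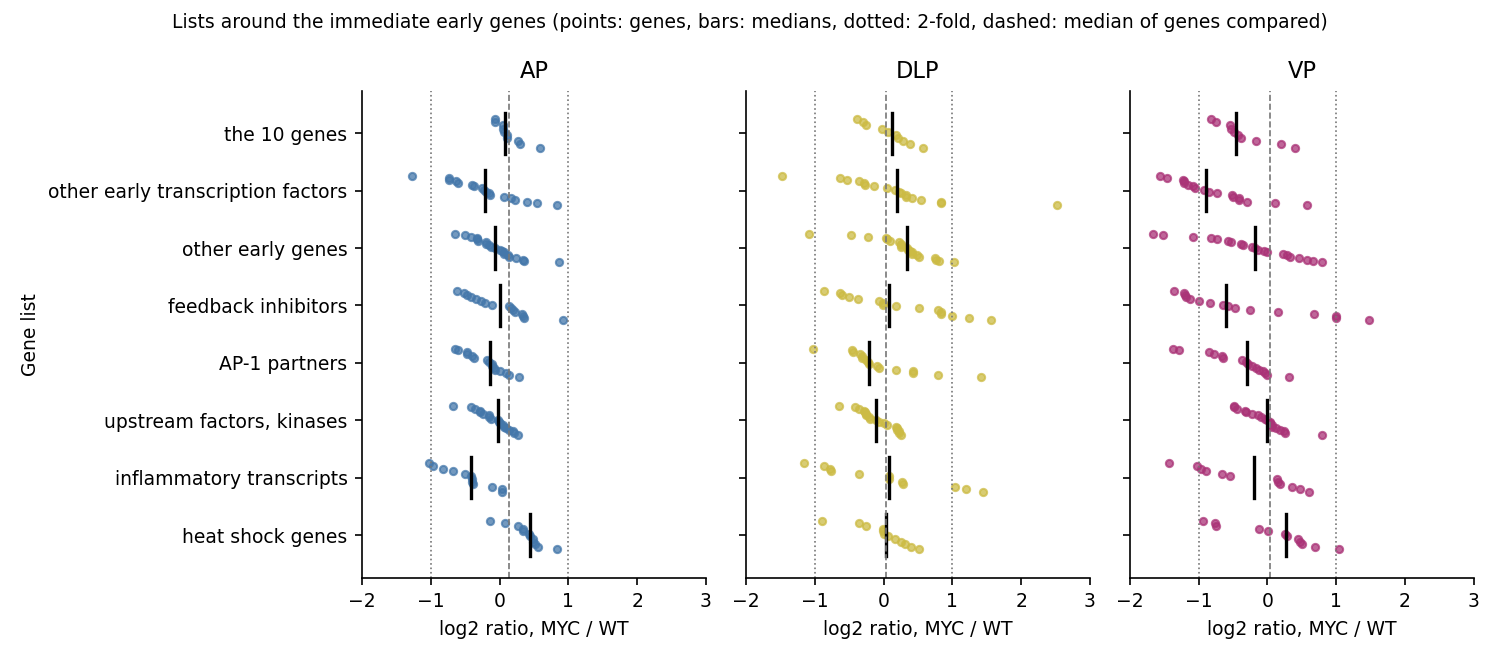
log2 ratios of MYC to WT in AP, DLP and VP for the 10 immediate early genes and 7 related lists; each point is 1 gene from 1 library per genotype, black bars are list medians, dotted lines mark 2-fold and dashed lines the median of all genes compared. In VP the medians are -0.46 for the 10 genes, -0.89 for the other early transcription factors and 0.00 for the upstream factors and kinases.

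Among 1607 other genes whose mean reached 10 FPKM, with a standard deviation of at least 0.5 on the log2 scale, the mean centred log2 profile of the 10 genes (0.00 and 0.14 in the WT and the MYC library of AP, -0.18 and -0.10 in those of DLP, and 0.25 and -0.10 in those of VP) was most closely followed by MIR25 (Pearson r = 0.913), SPRY1 (0.847), GPX8 (0.827), CREB3L1 (0.796), GPX3 (0.756), ITGBL1 (0.745), MIR3072, MIR1938, MIR704 (0.741 each) and FAM114A1 (0.731). MIR25 was listed at 0 in 4 libraries and at 78.7 and 79.4 FPKM in MYC AP and WT VP, and the other 3 microRNA entries were listed above 0 in WT VP alone. SPRY1, a feedback inhibitor of receptor tyrosine kinases, had 42.6 and 46.8 FPKM in the WT and the MYC library of AP, 29.1 and 28.8 in those of DLP, and 77.2 and 48.7 in those of VP. With 6 libraries and 1607 candidates these are the closest of many profiles and no p-value is given. Of the 10 genes themselves, only EGR1 (0.59) and ATF3 (0.57) had a standard deviation of at least 0.5. Genes that varied as little as the others were thus left out of the search.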

How the data were processed

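Bulk RNA-seq of 6 libraries (3 lobes, 1 WT and 1 MYC mouse) was re-analysed. The authors prepared poly(A)-selected, stranded libraries, aligned the single-end reads by STAR, obtained gene values by Cufflinks (bcl2fastq 2.18 and the mm10 build are in the submitters' processing notes), and deposited 1 table of FPKM. The methods call the values read counts and name a count-based test, but what was deposited is fractional, with library sums from 374085 to 483143. The values were used as FPKM, and with 1 library per group no test was run. Dissociated cells of 1 animal per genotype entered each library.

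Values were compared as log2 ratios after adding a pseudocount of 1, which understates the change of low genes, for the 12361 genes whose mean over the libraries reached 1 FPKM, with a 2-fold threshold. The members and lists were chosen with earlier results of these data known. Named genes were the 10 members, up to 4 genes of each list at least 2-fold changed the same way in 2 or more lobes (otherwise the 2 with the highest mean), and the 10 genes most like the members' mean profile. Depth was estimated from the spacing of low FPKM of genes with 1 exon and 1 transcript, for which 34.4% to 48.3% of values lay within 0.03 of a whole read (6% by chance). Intervals are exact 95% binomial (Clopper-Pearson) intervals on estimated reads and cover counting error only. Coordinates are from RefSeq (GRCm38.p6, the same assembly as mm10), where all 10 members were matched. As a check of the calculation alone, libraries of 12361 genes per lobe were simulated with counting noise only, and all 200 genes changed 4-fold were called. The simulation held no spread between mice and no scaling difference, so it cannot bear on the ratios reported here. Alternatives were 3 scalings, a pseudocount of 0.1, a minimum mean of 10 FPKM, no filter and a 4-fold threshold. Python 3.11.15, numpy 2.4.6, pandas 2.3.3 and matplotlib 3.10.9 were used.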

Additional observations from a re-analysis of the deposited data

Results flagged for a closer look

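For 7 of the 10 genes the log2 ratio of MYC to WT had opposite signs in 2 lobes, each lobe with 1 library per genotype, so none of these differences was tested. The ratio in VP less that in AP was -0.58 for FOS, -0.72 for JUN, -0.22 for JUND, -0.93 for EGR1, -0.97 for ATF3 and -0.59 for ZFP36. The ratio in VP less that in DLP was -0.64 for JUN, -0.61 for JUNB, -0.35 for JUND and -0.98 for ATF3. The ratio in DLP less that in AP was -0.30 for FOS, 0.13 for JUNB, -0.49 for EGR1 and -0.13 for ZFP36. The lobe libraries of 1 mouse share that mouse, and marker sums differed between the genotypes in all 3 lobes (fibroblast, smooth muscle and hematopoietic markers in DLP and VP, basal and smooth muscle markers and seminal vesicle genes in AP), so that lobe, mouse and cell makeup cannot be told apart here. With scaling by medians of ratios, the number of genes above 0 in AP and below 0 in VP was 2 (JUN and ATF3) in place of 6. Of the 7 genes, JUN, JUNB, JUND and ATF3 then still had opposite signs in 2 lobes, while FOS, EGR1 and ZFP36 were below 0 in all 3, and of the 4 with opposite signs in DLP and AP only JUNB kept them. JUND and KLF6 gained opposite signs in DLP and AP under that scaling, which made 3 genes. With KLF6, 5 of the 10 genes then had opposite signs in 2 lobes.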

How the results depend on the processing

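Under 3 other scalings, a pseudocount of 0.1, a minimum mean of 10 FPKM and no filter, the median of the 10 genes in VP (MYC against WT) lay between -0.73 and -0.46, and 0.46 to 0.55 below the median of all genes, with 8 of the 10 below that median each time. With equal sums of FPKM, the median over all genes in VP went from 0.04 to -0.15 and their calls from 850 higher and 736 lower to 553 and 1086. The count of the 10 genes at 2-fold in VP was 0, but 1 with equal sums and 2 with equal sums without the 20 highest genes. Between VP and AP of the MYC mouse it was 1, and 3 under both of these. A 4-fold threshold left 0 of the 10 in the lobe comparisons in which 1 had passed 2-fold, and 0 in place of 8 of the 18 other early transcription factors in VP, a result whose alternatives, like those of the feedback inhibitors, were added after seeing the data. Medians near 0 changed sign with the scaling: -0.07 to 0.08 in AP, -0.04 to 0.13 in DLP, and -0.15 to 0.13 between VP and DLP of the MYC mouse. The 4 ratios of single genes at 2-fold kept their direction in all 24 alternative values, whereas 19 of the 86 smaller ratios changed sign under at least 1 alternative. By Spearman's rho, the 10 genes closest to the mean profile had values of 0.37 (FAM114A1) to 0.85 (MIR25). No paired test was run: the lobes could pair the 2 mice, but such a fit would compare the mice and not the genotypes. Depth did not limit the 10 genes (counting intervals within 0.035 on the log2 scale), whereas the spread between mice is unknown.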
